A study of Mus musculus with 26 samples.

Results

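Interferon response genes are described here in mouse mammary fibroblasts and macrophages that were grown alone or together. The 41 genes were taken by symbol from a module of interferon-induced genes. Of these, 36 are listed among the 12948 genes of the fibroblast table and 40 among the 11822 genes of the macrophage table. Cxcl9, an interferon-induced chemokine, is listed in neither table, and Mx1, Rsad2, Cmpk2 and Xaf1 are listed for macrophages only.

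The study sequenced the 3' ends of messenger RNA in 12 fibroblast and 14 macrophage libraries. Fibroblasts came from the mammary fat pad of 8-week-old BALB/c mice, with 2 females pooled per replicate, were depleted of CD45- and EpCAM-bearing cells and were sorted as PI- F4/80- CD11b- cells, 10000 per library. Macrophages were differentiated from the bone marrow of BALB/c mice of the same age over 7 days in medium with 20% L929-conditioned medium and carry the sort label PI- F4/80+ CD11b+. Cells were seeded at 300000 on collagen I in plain DMEM with serum or in 4T1 CM, which is medium conditioned by 4T1, a mouse mammary carcinoma line, and co-cultures lasted 7 days. The fibroblast groups were alone in DMEM (3 libraries), with macrophages in DMEM (3 libraries), alone in 4T1 CM (2 libraries) and with macrophages in 4T1 CM (4 libraries). The macrophage groups were alone at day 0 (3 libraries), with fibroblasts in DMEM (3 libraries), alone in 4T1 CM (4 libraries) and with fibroblasts in 4T1 CM (4 libraries). No source used here states when the mono-cultures were harvested. The columns taken as day 0 macrophages are headed as cells only in DMEM, while the sample titles call them day 0. If the heads are right, the comparisons with day 0 below compare co-culture with mono-culture in DMEM and 4T1 CM with DMEM in mono-culture. The labels name no genetic change and no added interferon in any group.

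Type I interferons bind the receptor made of Ifnar1 and Ifnar2 and act through Jak1, Tyk2, Stat2 and Irf9, and the last of these steps is a transcription factor complex that binds interferon-stimulated response elements in gene promoters. Interferon gamma acts through Ifngr1, Ifngr2, Jak1 and Jak2 on genes with gamma-activated sites. The induced genes include sensors of viral nucleic acid, enzymes and proteins that block viral replication, the ubiquitin-like protein ISG15, guanylate-binding GTPases and chemokines, and macrophages keep many of them switched on at a low level without infection.

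Fibroblast libraries held 1945980 to 7632366 reads and macrophage libraries 1434695 to 4140985. Markers of the other cell type were present in the sorted cells. The share of partner RNA was estimated from marker genes, as the median over markers of the level in a library as a percentage of the level in the sorted partner cells from co-culture in the same medium. Macrophage RNA came to 0.0256% ± 0.0144 (SD, n = 3) of fibroblasts grown alone in DMEM, 1.24% ± 0.503 (n = 3) of those co-cultured in DMEM, 0.17% ± 0.0305 (n = 2) of those alone in 4T1 CM and 0.209% ± 0.23 (n = 4) of those co-cultured in 4T1 CM. Fibroblast RNA came to 3.70% ± 2.62 (n = 3) of macrophages co-cultured in DMEM and 8.85% ± 8.46 (n = 4) of those co-cultured in 4T1 CM, where replicate 3 held 21.4%, against 0% to 0.187% in the macrophage libraries grown alone. All 16 macrophage and 12 fibroblast markers were listed in both tables, and none of 8 T or NK cell markers was listed in either. Day 0 replicate 1 stood apart from the other day 0 libraries, with a median over members of 0.41 on the log2 scale against the group mean, compared with -0.26 and -0.33.

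Promoters of the members were rich in the letters that interferon-activated factors are known to bind. Windows from RefSeq (GRCm38.p6), 250 bases before to 50 after the gene start, were matched for 32 of the 41 members. The response element core (GAAA, any 2 bases, then GAAA), searched on both strands, was present in 18 of 32 member windows (56.2%) and in 3.49% of all 27018 genes' first windows. The gamma-activated site core TTCNNNGAA was present in 11 of 32 (34.4%) and in 8.47% of all genes' first windows. These matches are letters and not measured binding. The members were chosen as interferon-induced genes, so a higher share than over all genes could follow from that choice. The windows of Isg15, Ifit3 and Cxcl10 are shown because these genes moved furthest or behaved differently from each other in the comparisons that follow. Capitals mark every base that lies in a response element core, read on either strand.
Isg15 (chr4:156200769-156201068, minus strand, 5′ to 3′): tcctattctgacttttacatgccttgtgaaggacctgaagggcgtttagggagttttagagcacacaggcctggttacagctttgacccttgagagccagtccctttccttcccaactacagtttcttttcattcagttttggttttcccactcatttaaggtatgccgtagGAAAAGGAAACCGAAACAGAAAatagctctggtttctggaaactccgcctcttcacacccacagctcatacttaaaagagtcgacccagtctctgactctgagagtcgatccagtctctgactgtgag
Ifit3 (chr19:34583279-34583578, plus strand, 5′ to 3′): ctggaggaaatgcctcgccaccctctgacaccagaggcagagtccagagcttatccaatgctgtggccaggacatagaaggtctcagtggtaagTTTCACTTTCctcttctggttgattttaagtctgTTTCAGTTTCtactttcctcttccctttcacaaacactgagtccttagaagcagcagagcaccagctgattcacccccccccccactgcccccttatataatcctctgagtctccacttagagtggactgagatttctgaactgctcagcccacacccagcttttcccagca
Cxcl10 (chr5:92348840-92349139, minus strand, 5′ to 3′): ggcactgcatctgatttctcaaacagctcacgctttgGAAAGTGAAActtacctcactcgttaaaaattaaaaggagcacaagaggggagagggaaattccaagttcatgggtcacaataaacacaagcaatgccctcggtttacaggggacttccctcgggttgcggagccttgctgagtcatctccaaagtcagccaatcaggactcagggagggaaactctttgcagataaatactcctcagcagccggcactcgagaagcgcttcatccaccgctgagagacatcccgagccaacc
In the Isg15 window 3 overlapping cores run together, the first starting 78 bases before the gene start. Ifit3 holds 2 separate cores, at 156 and 122 bases before the start and both on the opposite strand, and Cxcl10 holds 1 core at 213 bases before the start. By the annotation used (GENCODE vM21, mm10), Isg15 spans 156199424 to 156200818 on chromosome 4, Ifit3 spans 34583531 to 34588731 on chromosome 19, and Cxcl10 spans 92346638 to 92348889 on chromosome 5.

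Before any treatment, most of the members were at a higher level in macrophages than in fibroblasts. Levels are given as CPM, reads scaled to the total of the listed genes in a library. They are set side by side as a description because the cell types were normalized separately. Between day 0 macrophages and fibroblasts grown alone in DMEM, every macrophage library was above every fibroblast library for 28 of the 36 members listed for both, and the reverse held only for Isg20, an RNA exonuclease. Of the 11120 genes listed in both tables, 25.5% were higher in macrophages and 41.2% in fibroblasts in that way. In mono-culture in 4T1 CM the members' counts were 22 and 3, against 19.9% and 47.9% of all genes, and in co-culture in DMEM 17 and 4, against 22.1% and 42.8%. In co-culture in 4T1 CM they were 6 and 2, against 19.8% and 37.8%, and the other 28 members overlapped. Isg15 was among the genes with higher levels in fibroblasts in all groups but the first. The plot of library medians shows each library against the baseline of its own cell type.

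**Figure D1:**
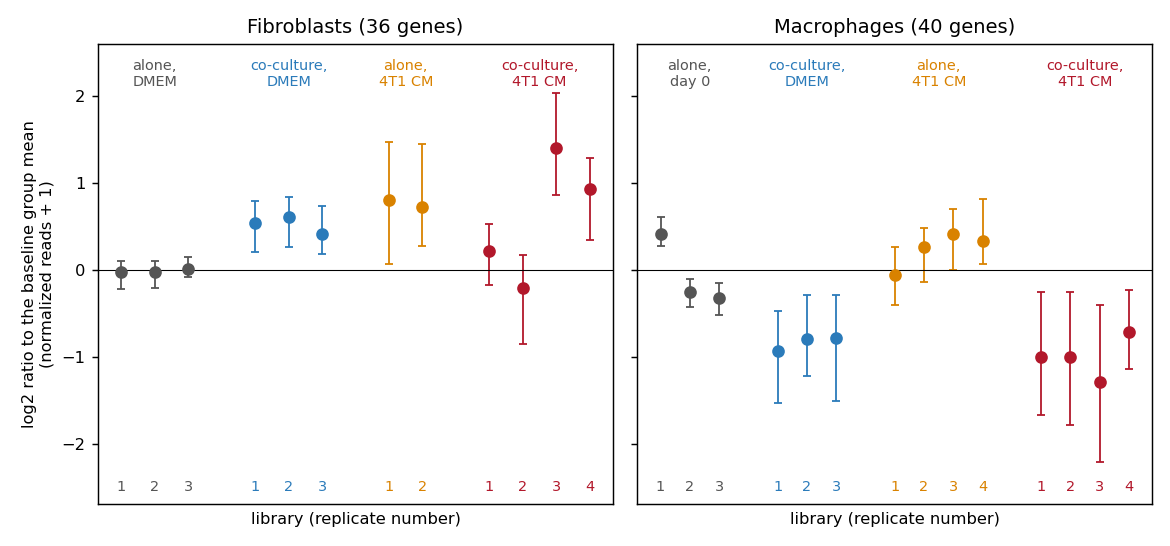
Median over the listed members of the log2 ratio of each library to the mean of its baseline group (fibroblasts alone in DMEM, macrophages at day 0), on normalized reads + 1. Points are libraries, bars run from the lower to the upper quartile over members, and the horizontal line is the baseline. All 7 co-cultured macrophage libraries lie between -1.29 and -0.72, and the co-cultured fibroblast libraries in 4T1 CM spread from -0.21 to 1.40.

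In macrophages kept in 4T1 CM, most of the members were lower with fibroblasts present than without. Of 39 members tested, 27 were lower and 0 higher in co-culture (edgeR quasi-likelihood test, adjusted p under 0.05 over 10088 genes), where 11.9% of all genes were lower and 14% higher. DESeq2 called 28 lower and 0 higher, and 31 members had an unadjusted p under 0.05. The median log2 change was -1.19 over the members and 0.03 over all genes. In 25 members every co-cultured library lay below every mono-cultured library and in 0 above, as did 11.5% and 14.7% of all genes.

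Among the transcription factors, Irf7, which amplifies the type I interferon response and is itself induced by it, had 2008, 2683, 3245 and 2582 normalized reads in the mono-cultured libraries in 4T1 CM and 575, 410.5, 390.3 and 1166 in the co-cultured ones. Normalized reads are the authors' depth-scaled values, in replicate order, and values per library without a unit below are in normalized reads. The groups did not overlap, and the change was -2.06 ± 0.32 (log2 ± SE, adjusted p = 0.000183). Irf1, which is induced above all by interferon gamma, had 363, 327, 409 and 295 normalized reads alone and 121.8, 120.2, 145 and 88.9 in co-culture. That fall of 1.58 ± 0.16 on the log2 scale carried the smallest adjusted p of the members (4.99e-06). Irf8, a lineage factor of macrophages, Stat2, which carries the type I signal, and Irf9, its partner, did not pass, with changes of -0.50 ± 0.18, -0.55 ± 0.21 and -0.29 ± 0.17 and adjusted p of 0.0515, 0.067 and 0.231. Irf8 had 691, 574, 935 and 754 alone and 523, 628, 556 and 405 in co-culture, and Stat2 had 328, 379, 591 and 528 and 266, 358, 311 and 323, with overlap for both. The adjusted p of Irf8 ranged from 0.0265 to 0.155 over the alternatives tried.

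Among the sensors 3 of 4 fell: Zbp1, Dhx58 and Ddx58. Zbp1, which senses Z-form nucleic acid, had 343, 382, 411 and 401 normalized reads alone and 116, 125, 116 and 152 in co-culture, without overlap (-1.59 ± 0.19, adjusted p = 1.76e-05). Ddx58, the gene of the RNA sensor RIG-I, fell by 0.79 ± 0.27 (adjusted p = 0.04), and the related Ifih1 had a change of -0.56 ± 0.47 that did not pass (adjusted p = 0.421). Both genes of the ISG15 system fell: Isg15 and Usp18, the protease that removes ISG15 from proteins. Isg15 had 302, 391.5, 401 and 349.7 normalized reads alone and 73.1, 88.4, 116 and 105 in co-culture. Every co-cultured library was below every mono-cultured one, and the change was -1.92 ± 0.25 (adjusted p = 4.83e-05).

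Of 16 antiviral effectors, 12 fell, and their median change was -1.60. Ifit3, of the same gene family as Ifit1, had 65.1, 83.5, 124 and 114.5 normalized reads alone and 0, 12.02, 9.56 and 16.9 in co-culture. Its change of -3.15 ± 0.44 (adjusted p = 8.03e-05) had the greatest size among the 39 members. Reads of Ifit3 may be shared with its near-identical copy Ifit3b, which fell too (-1.92 ± 0.61, adjusted p = 0.0283), so the division between them is uncertain. Oasl2, of the oligoadenylate synthetase family, had 414, 470.3, 464 and 589 normalized reads alone and 95.6, 88.4, 68.5 and 193 in co-culture (-2.10 ± 0.25, adjusted p = 1.76e-05). The groups did not overlap. Its relative Oasl1 had 199, 299.8, 292 and 231 alone and 63.7, 64.4, 43.01 and 80.9 in co-culture (-2.01 ± 0.27, adjusted p = 5.04e-05). Bst2, the gene of tetherin, which holds budding virus on the cell, went from 806, 937, 1567 and 971 normalized reads to 392, 437, 428.5 and 638. Its groups did not overlap (-1.19 ± 0.25, adjusted p = 0.00224). The effectors that did not pass were Cmpk2, Rsad2, Eif2ak2 and Isg20, with changes from -1.25 to 0.10.

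Of the GTPases, Igtp, Irgm1 and Gbp3 fell, by 1.26, 0.91 and 1.02 on the log2 scale. Gbp2, which attacks the membranes of intracellular microbes, had 44.6, 41.2, 41.4 and 65.9 normalized reads alone and 37.5, 37.8, 20.7 and 36.5 in co-culture. These did not overlap, but the change of -0.53 ± 0.22 did not pass (adjusted p = 0.0878), nor did that of Gbp7 (-0.50 ± 0.29, adjusted p = 0.231). Gbp genes lie in a cluster of close relatives, so reads could be divided among them. Among the other interferon-stimulated genes 5 of 6 fell, all but Trim30a. Rtp4, a chaperone of membrane receptors, had 684, 790.1, 587 and 597 alone and 139, 133, 105 and 291 in co-culture (-1.98 ± 0.25, adjusted p = 3.15e-05). Parp14, an ADP-ribosyltransferase, had 276, 415, 394 and 365 alone and 169, 153, 118 and 188 in co-culture (-1.21 ± 0.16, adjusted p = 5.12e-05). Neither overlapped between the groups. The chemokine gene Cxcl10 was low in both groups, with 8.03, 5.88, 2.59 and 6.22 normalized reads alone and 0, 7.73, 0 and 7.12 in co-culture (-0.27 ± 0.68, adjusted p = 0.82).

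**Figure D2:**
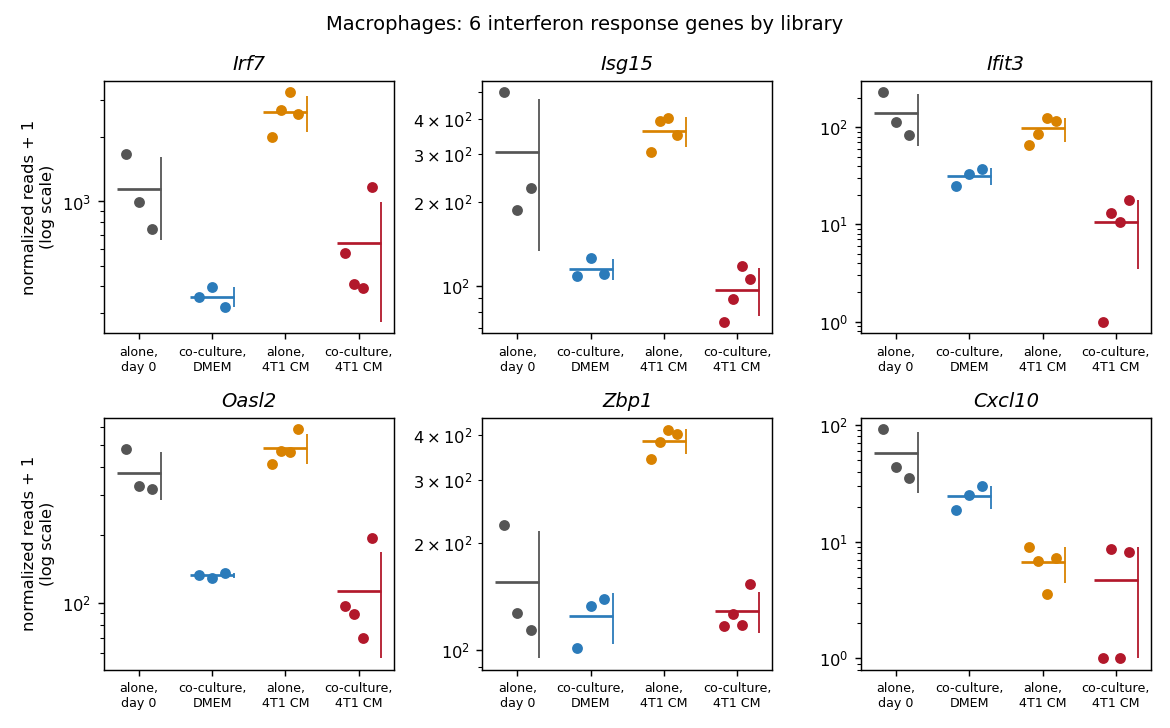
Normalized reads + 1 (log axis) of 6 members in each macrophage library. Points are libraries, horizontal lines are group means, and vertical lines to the right are ± 1 SD, cut at 0 reads where the SD exceeds the mean. Irf7, Isg15, Ifit3, Oasl2 and Zbp1 are lower in all 4 co-cultured libraries in 4T1 CM than in all 4 libraries alone in 4T1 CM, while Cxcl10 is low in both.

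Other measures moved with this result. In the same comparison 9 of 16 macrophage markers were lower and 1 was higher, with a median change of -0.65, and their summed level was 48610 to 61670 CPM in co-culture against 73810 to 82670 alone. All 11 fibroblast markers tested were higher. Of 7 epithelial and carcinoma markers only 2, Krt19 and Cdh1, were listed for macrophages. They summed to 17.65 to 37.64 CPM in co-culture and 0 to 0.86 alone. Without replicate 3 of the co-culture, which held the most fibroblast RNA, 26 members were called. If the fibroblast RNA is taken to carry members at the level of sorted fibroblasts, it would account for a median of 3.20% to 5.56% of a member's level in replicates 1, 2 and 4 and 20.4% in replicate 3. For Isg15 the same calculation gives 24.9% to 103% over the 4 libraries. The part of partner RNA, of the source of Krt19 and Cdh1 and of the lower macrophage markers in the result was not tested. In bulk libraries, fewer cells expressing a gene and less RNA per cell cannot be told apart.

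Macrophages alone in 4T1 CM were compared with day 0. Zbp1, Gbp7, Bst2, Ddx58, Oas2 and Irf7 were higher and Cxcl10 and Cmpk2 lower. Time in culture and the medium cannot be told apart in this comparison if the titles are right. Against day 0, 6 of 39 members were higher in mono-culture in 4T1 CM and 2 were lower, where 11.1% of all genes were higher and 10.9% lower. Without overlap, 5 were higher and 2 lower, against 13.5% and 15.8% of all genes. The called shares over the members were near those of all genes, and the median change was 0.27 against 0.04 over all genes. Zbp1 had the smallest adjusted p (1.35 ± 0.20, adjusted p = 9.39e-05, edgeR). Gbp7 had 5.28, 4.64 and 10.3 normalized reads at day 0 and 34.8, 31.7, 32.8 and 32.4 in 4T1 CM (2.28 ± 0.35, adjusted p = 0.000153). Irf7 had 1674, 997 and 741 at day 0, below all the libraries in 4T1 CM given above (1.25 ± 0.34, adjusted p = 0.0135). Without day 0 replicate 2 or replicate 3 the adjusted p of Irf7 was above 0.05 and reached 0.0792. Bst2 had 731, 352 and 334 normalized reads at day 0 and rose by 1.22 ± 0.27 (adjusted p = 0.00388). Its groups did not overlap. Oas2, which makes the activator of RNase L, had 465, 296 and 217 at day 0 and 451, 562, 701 and 754 in 4T1 CM (0.96 ± 0.23, adjusted p = 0.00653). Ddx58 had 41.5, 23.2 and 19.3 at day 0 and 40.1, 58.8, 73.3 and 78.4 in 4T1 CM (1.19 ± 0.29, adjusted p = 0.00643). Zbp1 was at 223, 126 and 113 at day 0, below all libraries in 4T1 CM, while Oas2 and Ddx58 overlapped.

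Cxcl10, which draws activated T cells to a tissue, went the other way. It had 91.3, 42.6 and 34.5 normalized reads at day 0 and 8.03 or less in every library in 4T1 CM, a change of -3.26 ± 0.52 (adjusted p = 0.000185). Cmpk2, a mitochondrial nucleotide kinase, had 104, 44.9 and 43.4 at day 0 and 16.1, 28.2, 18.98 and 24.9 in 4T1 CM. It fell by 1.52 ± 0.41 (adjusted p = 0.0138), and without day 0 replicate 1 the change was -0.99 and was not called (adjusted p = 0.142). At day 0, Irf1 had 228, 322 and 269.6, Irf8 467, 725 and 548, Stat2 446, 260.1 and 236 and Gbp2 53.6, 56.5 and 40.7. The changes of Isg15 (0.29 ± 0.25), Ifit3 (-0.50 ± 0.35), Irf1 (0.39 ± 0.16), Irf8 (0.38 ± 0.19), Stat2 (0.58 ± 0.23) and Gbp2 (-0.03 ± 0.22) did not pass. Without day 0 replicate 1, the library that stood apart, 12 members were called in place of 8. Macrophage markers were higher in 7 of 16 cases in this comparison, with a median of 0.42. The plot of changes by role sets this comparison beside that of co-culture, and each uses the mono-cultured libraries in 4T1 CM, so the positions of a gene in the 2 are not independent.

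**Figure D3:**
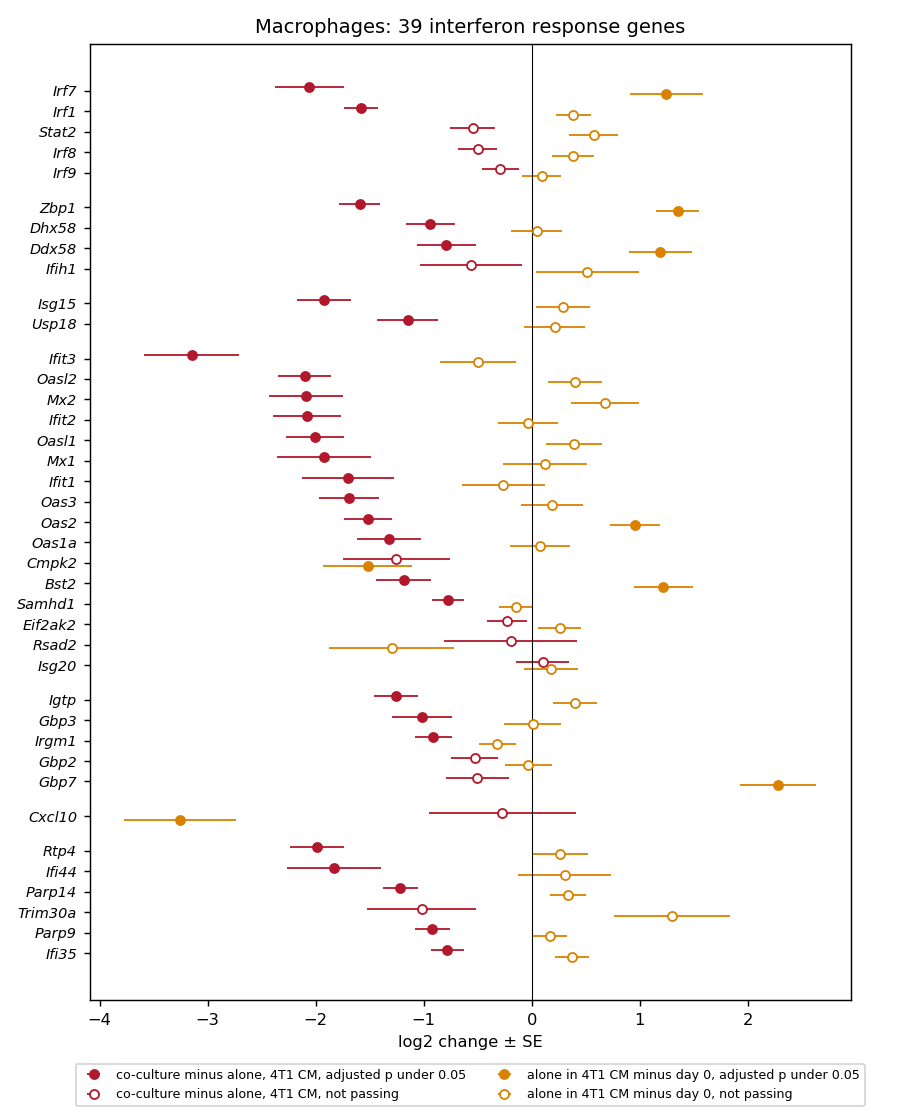
Log2 change ± SE (edgeR) of the 39 members tested in macrophages, grouped from top to bottom as transcription factors, sensors, ISG15 system, antiviral effectors, GTPases, chemokine and other interferon-stimulated genes. Filled points have an adjusted p under 0.05. With against without fibroblasts in 4T1 CM, 38 of 39 points lie below 0, and in mono-culture in 4T1 CM against day 0, 30 of 39 lie above 0.

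Co-culture in DMEM was compared with day 0. Of 39 members, 17 were lower and 0 higher, where 6.71% of all genes were lower and 8.47% higher, and DESeq2 called 18 lower and 0 higher. The median change was -0.85 over the members and 0.00 over all genes, and 22 members were lower without overlap and 0 higher, against 16.1% and 15.6% of all genes. Of the 17, 9 were antiviral effectors, led by Oas3 (-1.97 ± 0.33, adjusted p = 0.000577) and Oasl2 (-1.50 ± 0.28, adjusted p = 0.00145). Oas3 had 797, 363 and 383 normalized reads at day 0 and 118, 126 and 143 in co-culture. Isg15 had 498, 187 and 224 at day 0 and 108, 125 and 109 in co-culture (-1.39 ± 0.28, adjusted p = 0.00281). Ifit3 had 227, 112 and 81.3 at day 0 and 23.7, 31.8 and 36.01 in co-culture (-2.16 ± 0.42, adjusted p = 0.0021). None of the 3 genes overlapped between the groups, and all were highest in day 0 replicate 1. Oasl2 had 479, 327 and 319 at day 0 and 131, 128 and 134 in co-culture, and Usp18 199, 85.9 and 104 and 40.2, 32.9 and 39.3. Samhd1, which hydrolyses the nucleotides that viruses need, had 577, 543 and 470.2 at day 0 and 276, 269.5 and 295 in co-culture. All of these were lower in every co-cultured library. Irf1 had 135, 149.6 and 164 and Oasl1 59.2, 99.7 and 65.5 in co-culture, each below all day 0 libraries, with Oasl1 at 305, 155 and 138 there. Usp18, Samhd1, Irf1 and Oasl1 fell by 1.77, 0.90, 0.85 and 1.40.

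Irf7 had 355, 395 and 318 normalized reads in co-culture in DMEM and fell by 1.66 ± 0.36 (adjusted p = 0.00517). In co-culture in DMEM, Bst2 had 462, 525 and 521, Stat2 225, 282 and 297, Irf8 471, 623 and 529 and Gbp2 36.7, 39.3 and 38.6. Bst2 (0.11 ± 0.29), Zbp1 (-0.30 ± 0.21), Stat2 (-0.21 ± 0.24), Irf8 (-0.09 ± 0.21), Gbp2 (-0.38 ± 0.24) and Cxcl10 (-1.20 ± 0.47) did not pass. Leaving out day 0 replicate 1 left 11 members called and leaving out day 0 replicate 3 left 20. Of the macrophage markers 4 were higher and 1 lower of 16, with a median change of -0.05, and all 11 fibroblast markers tested were higher, with a median of 6.74. Their part in the result was not tested. Time in culture and the presence of fibroblasts cannot be told apart in this comparison if the titles are right.

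Between the co-cultures, Cxcl10 was lower in 4T1 CM than in DMEM, and how many other members were called depended on the fit. With 4T1 CM against DMEM, 1 of 39 members was lower and 0 higher, where 4.63% of all genes were lower and 5.68% higher, and 7 had an unadjusted p under 0.05. DESeq2 called 2 lower and 0 higher. The called member was Cxcl10, with 17.8, 24.4 and 28.8 normalized reads in DMEM and at most 7.73 in 4T1 CM (-2.32 ± 0.58, adjusted p = 0.0156). Without replicate 3 of the co-culture in DMEM its adjusted p was 0.0516. Same-numbered libraries of these groups deviated together (r = 0.168 to 0.444 over 3 pairs). With the replicate number as a block over all libraries, 2 members were lower, Cxcl10 (-2.60 ± 0.64, adjusted p = 0.0177) and Irgm1 (-0.64 ± 0.17, adjusted p = 0.0259). There, 1002 of 10088 genes were called, counted in either direction. With the block in a fit of the co-cultured libraries alone, a choice made after seeing the data, 7 of 37 were lower and 0 higher. There, 1241 of 9365 genes were called, again counted in either direction, so the share of all genes that were lower is not given. The 7 were Rtp4, Cxcl10, Ifit3, Irgm1, Cmpk2, Oasl2 and Ifi44. In that fit the change of Rtp4 was -1.03 ± 0.14 (adjusted p = 0.00135) and that of Ifit3 was -1.98 ± 0.47 (adjusted p = 0.0225). Without overlap, 3 members were lower and 2 higher, against 11.3% of all genes each way. Ifit3 was among the lower ones but did not pass without the block (-1.49 ± 0.50, adjusted p = 0.0728), and the changes of Isg15 (-0.24 ± 0.28), Irf7 (0.85 ± 0.34), Irf1 (-0.34 ± 0.18), Stat2 (0.24 ± 0.23), Irf8 (-0.03 ± 0.19), Gbp2 (-0.18 ± 0.24) and Bst2 (-0.08 ± 0.27) did not pass either. Macrophages in co-culture in 4T1 CM against day 0 had 23 members lower and 1 higher, where 14.8% of all genes were lower and 16.7% higher. Gbp7 was the member that was higher (1.78 ± 0.36, adjusted p = 0.0012). Ifit3 (-3.65 ± 0.44, adjusted p = 1.09e-05), Cxcl10 (-3.53 ± 0.54, adjusted p = 9.57e-05), Irf1, Irgm1, Oasl2, Rtp4 and Ifit2 were among those lower. Isg15 was lower too, with changes of -1.89 to -1.08 over the fits that left out 1 library. Irgm1, a GTPase that controls autophagy, had 279, 196 and 192 at day 0 and 91.8, 91.02, 78.1 and 110.3 in co-culture, Ifit2 had 86.8, 61.9 and 62.05 and 11.2, 18.9, 7.97 and 21.3, and Rtp4 had 713, 472 and 511 at day 0. For these 3, every co-cultured library was below every day 0 library. Members without overlap numbered 23 lower and 1 higher, against 19.1% and 19.3% of all genes. Irf8 (-0.12 ± 0.19), Stat2 (0.03 ± 0.23), Gbp2 (-0.56 ± 0.23), Irf7 (-0.81 ± 0.33, adjusted p = 0.0716) and Bst2 (0.03 ± 0.27) did not pass. In the same comparison all 11 fibroblast markers tested were higher, with a median of 7.02, and of 16 macrophage markers 8 were lower and 6 higher. Krt19 and Cdh1, the only epithelial and carcinoma markers listed, summed to 17.65 to 37.64 CPM against 0 to 0.287 at day 0. The part of all these markers was not tested. This comparison shares its groups with those above.

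In fibroblasts grown alone, 4T1 CM went with higher levels of the sensors Ddx58, Dhx58 and Zbp1, of Irf1 and Irf7 and of 4 antiviral effectors. Of 36 members, 9 were higher and 0 lower than in DMEM (limma on log2 of normalized reads + 1, adjusted p under 0.05 over 12401 genes), where 6.36% of all genes were higher and 6.93% lower. edgeR on the recovered reads called 8 higher and 0 lower. The median change was 0.82 over the members and -0.01 over all genes, also with Oas3 placed at its bound. Without overlap, 22 members were higher and 1, Cxcl10, was lower, but with 2 libraries against 3 the same held for 22.8% and 23.8% of all genes. With replicate 1 of the mono-culture in 4T1 CM left out, only Dhx58 passed, in a fit where the lone library left in that group is assumed to vary like the other groups.

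Irf7 had 86.4, 122 and 127 normalized reads in DMEM and 642 and 555 in 4T1 CM. All libraries in 4T1 CM were higher, by 2.43 ± 0.53 on the log2 scale (adjusted p = 0.0095). Irf1 had 105.4, 126 and 104.7 in DMEM and 203 and 201 in 4T1 CM (0.85 ± 0.19, adjusted p = 0.00934). Stat2 (0.41 ± 0.37) and Irf9 (0.79 ± 0.34) did not pass, and Irf8 had 0.512, 0 and 0 normalized reads in DMEM and 0 and 2.47 in 4T1 CM, which is 1 read against 3. Among the sensors, Ddx58 had 27.6, 22.3 and 23.1 normalized reads in DMEM and 109 and 58.6 in 4T1 CM (1.68 ± 0.30, adjusted p = 0.003). Zbp1 had 127, 136 and 157 in DMEM and 527 and 375 in 4T1 CM (1.66 ± 0.34, adjusted p = 0.0068). For both, each library in 4T1 CM was above each in DMEM. Dhx58, a regulator of RIG-I signalling, had 31.7, 28.4 and 35.4 in DMEM and 103 and 123 in 4T1 CM (1.79 ± 0.38, adjusted p = 0.00851).

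Of 13 effectors 4 rose: Isg20, Oas3, Oasl2 and Bst2. Isg20 went from 109, 93.4 and 97.0 normalized reads to 219 and 186 (1.01 ± 0.22, adjusted p = 0.00876), and Oasl2 from 91.1, 118 and 123 to 389 and 332 (1.70 ± 0.47, adjusted p = 0.0302). Oas3 was at 0 in all 3 libraries in DMEM and at 5.92 and 6.60 normalized reads in 4T1 CM. Taking 3 reads over the DMEM group as the limit that a count of 0 allows, Oas3 was at least 7.99-fold higher (adjusted p = 0.017, limma). That bound takes the 11 reads in 4T1 CM as exact, and the call was lost with a pseudocount of 5. Bst2 had 446, 292 and 430.3 normalized reads in DMEM and 961 and 1298 in 4T1 CM (1.54 ± 0.44, adjusted p = 0.0344). The calls of Bst2 and Oasl2 were lost when any 1 library of the 5 was left out, with changes of 1.33 to 1.76 for Bst2 and 1.57 to 1.82 for Oasl2. Isg15 had 348, 379.7 and 382 normalized reads in DMEM and 1027 and 743 in 4T1 CM. Its libraries did not overlap, but the change of 1.24 ± 0.50 did not pass (adjusted p = 0.116). In DMEM and in 4T1 CM, Ifit3 had 39.4, 20.3 and 27.7 against 23.7 and 19.8, Gbp2 67.5, 67.01 and 70.8 against 47.4 and 67.6, Stat2 393, 321 and 386 against 619.9 and 382 and Cxcl10 3.58, 4.06 and 10.8 against 0 and 3.3. Of these, Cxcl10 alone did not overlap. Ifit3 (-0.36 ± 0.71), Gbp2 (-0.27 ± 0.48) and Cxcl10 (-1.65 ± 0.76, adjusted p = 0.173) did not pass, and 0 of 5 GTPases did. When only these 5 libraries were fitted, 17 members were higher. The share of all genes called in that fit is not given here, so the 17 cannot be set against it. Of 16 macrophage markers 2 were higher in the same comparison, with a median change of 1.23, and their summed level was 169 to 176 CPM against 44.0 to 54.9 in DMEM. Their part in the result was not tested.

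**Figure D4:**
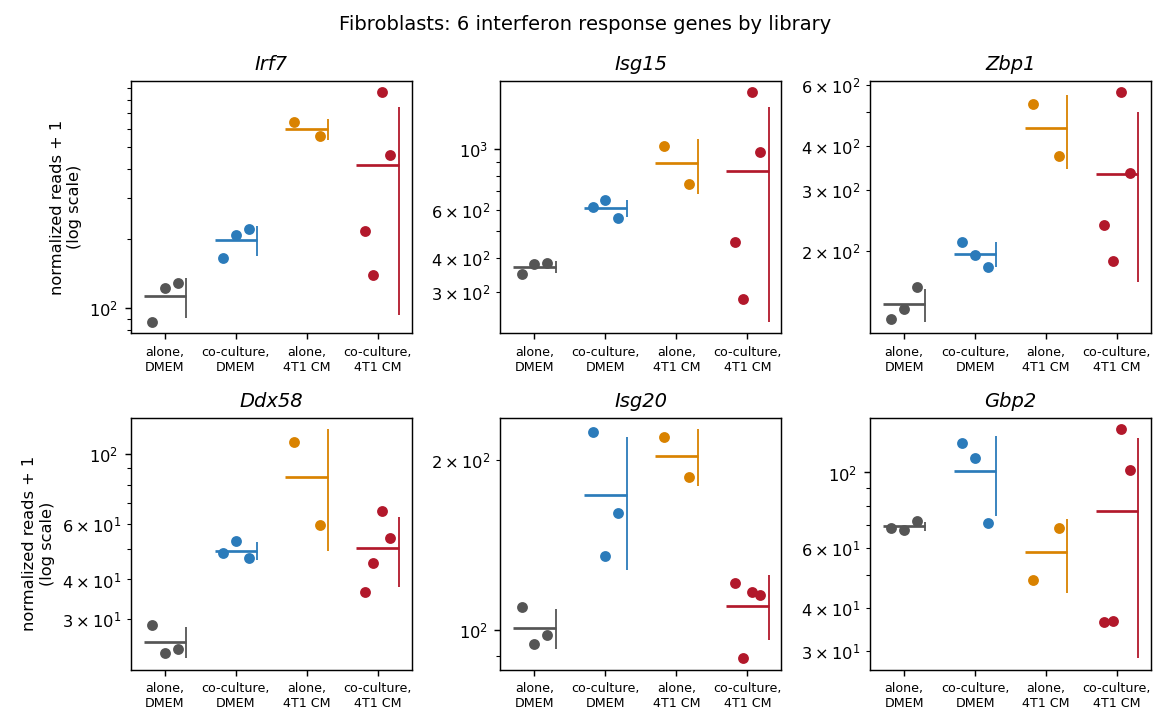
Normalized reads + 1 (log axis) of 6 members in each fibroblast library. Points are libraries, horizontal lines are group means, and vertical lines to the right are ± 1 SD. In co-culture in 4T1 CM, Irf7, Isg15, Zbp1 and Gbp2 are highest in replicate 3 (Isg15 from 282 to 1608 normalized reads over the group), while Isg20 lies between 88.0 and 120.1.

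Fibroblasts co-cultured in DMEM had 34 of 36 members with a change above 0, of which none passed the test. Of 36 members, limma called 0 in either direction, where 1% of all genes were called (0.855% higher and 0.145% lower), 9 had an unadjusted p under 0.05, and edgeR on the recovered reads also called 0. In 20 members every co-cultured library was above every mono-cultured one and in 0 below, while 10.4% of all genes were above and 8.42% below in that way. The median change was 0.50 over the members and 0.00 over all genes. Isg15 had 348, 379.7 and 382 normalized reads alone and 612, 648.5 and 561 in co-culture. Those groups did not overlap, and the spread estimated over all 12 libraries gave 0.71 ± 0.45 (adjusted p = 0.609). When only these 6 libraries were fitted, Isg15 passed (adjusted p = 0.0161) as the single member called.

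Irf7 had 86.4, 122 and 127 normalized reads alone and 164, 206 and 219.6 in co-culture (0.82 ± 0.47, adjusted p = 0.575). Isg20 had 109, 93.4 and 97.0 alone and 224, 134 and 160.5 in co-culture (0.76 ± 0.19, adjusted p = 0.101), the smallest adjusted p of the members. Ddx58 had 47.5, 52.0 and 45.8 normalized reads in co-culture, above all libraries alone (0.97 ± 0.27, adjusted p = 0.13). Cxcl10 had 3.58, 4.06 and 10.8 normalized reads alone and 14.3, 32.2 and 19.3 in co-culture (1.75 ± 0.68, adjusted p = 0.345). In co-culture, Irf1 had 139.7, 171 and 183, Bst2 519, 515 and 472, Gbp2 121, 109 and 69.97, Ifit3 25.1, 35.3 and 47.05 and Stat2 384, 405 and 359.5, of which Irf1 and Bst2 did not overlap with mono-culture. Irf1 (0.55 ± 0.17), Bst2 (0.39 ± 0.39), Gbp2 (0.50 ± 0.43), Ifit3 (0.29 ± 0.64) and Stat2 (0.07 ± 0.33) did not pass. Irf8 had 1 read in the 3 libraries alone and 28 in co-culture, a ratio of 36.1 with an exact 95% counting interval of 5.96 to 1475, which covers counting error only.

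Macrophage RNA moved with this comparison. Of the 16 macrophage markers 13 were higher in co-culture, with a median log2 change of 4.23, and the summed level was 724.8 to 1595 CPM against 44.0 to 54.9 alone. At the level of sorted macrophages, this RNA would account for 74.5% to 198% of Irf8 and 27.0% to 94.9% of Oas3 in the 3 co-cultured libraries, but for a median of 1.23% to 2.63% over the members and 1.12% to 3.26% of Cxcl10. Endothelial markers, summed over 6 genes, were at 28.6 to 99.1 CPM in co-culture and 11.9 to 15.9 alone. The part of endothelial RNA in the members' levels was not tested.

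In fibroblasts co-cultured in 4T1 CM the libraries of the group differed widely. The median log2 ratio of the members to the DMEM mono-culture was 0.21, -0.21, 1.40 and 0.93 in replicates 1 to 4. Isg15 had 456, 282, 1608 and 970.5 normalized reads, Irf7 214, 138, 860.3 and 459.8, and Oas2 12.5, 4.15, 167 and 41.7. Replicate 3 was the highest and replicate 2 the lowest for each of them. The same order, reversed, held for macrophage RNA, which came to 0.320%, 0.479%, 0.0148% and 0.01995% of the libraries in that sequence. Ifit3 had 16.7, 7.47, 79.1 and 55.8, Stat2 242, 228, 669.97 and 479.8, Gbp2 35.5, 35.7, 133 and 101, Bst2 571, 437, 1695 and 1346 and Irf1 165, 165, 123 and 135. All but Irf1 were highest in replicate 3. Cxcl10 had 15.7, 13.3, 2.61 and 4.17 and Irf8 2.09, 5.81, 0 and 0, both highest in replicates 1 and 2. The part of macrophage RNA or of its absence in these levels was not tested.

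No member passed the limma test in this group against mono-culture in 4T1 CM or against co-culture in DMEM. Against mono-culture in 4T1 CM, limma called 0 of 36 members, where 0.0242% of all genes were called, 4 had an unadjusted p under 0.05 and edgeR on the recovered reads called 0. Isg20 and Irf1 were lower without overlap and 0 members higher, against 7.18% and 7.86% of all genes. Irf8 did not pass, at 9 reads in co-culture against 3 alone. Isg15 (-0.38 ± 0.47), Irf7 (-0.86 ± 0.50), Irf1 (-0.47 ± 0.18), Ifit3 (0.34 ± 0.68), Stat2 (-0.41 ± 0.35), Gbp2 (0.18 ± 0.46), Bst2 (-0.36 ± 0.42) and Cxcl10 (1.98 ± 0.72) all had adjusted p above 0.05. Against co-culture in DMEM, limma called 0 of 36, where 2.33% of all genes were higher and 3.52% lower (5.85% in either direction), 5 had an unadjusted p under 0.05 and edgeR on the recovered reads called 1 lower. Isg20 was the 1 member lower without overlap and 0 were higher, against 9.13% and 7.06% of all genes. The smallest adjusted p was that of Isg20 (-0.63 ± 0.18, adjusted p = 0.0571), and Isg15 (0.14 ± 0.42), Irf7 (0.75 ± 0.44), Irf1 (-0.17 ± 0.16), Ifit3 (-0.31 ± 0.60), Stat2 (-0.07 ± 0.31), Gbp2 (-0.59 ± 0.40), Bst2 (0.79 ± 0.37) and Cxcl10 (-1.42 ± 0.64) did not pass. Of the macrophage markers, 14 of 16 were lower in that comparison.

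**Figure D5:**
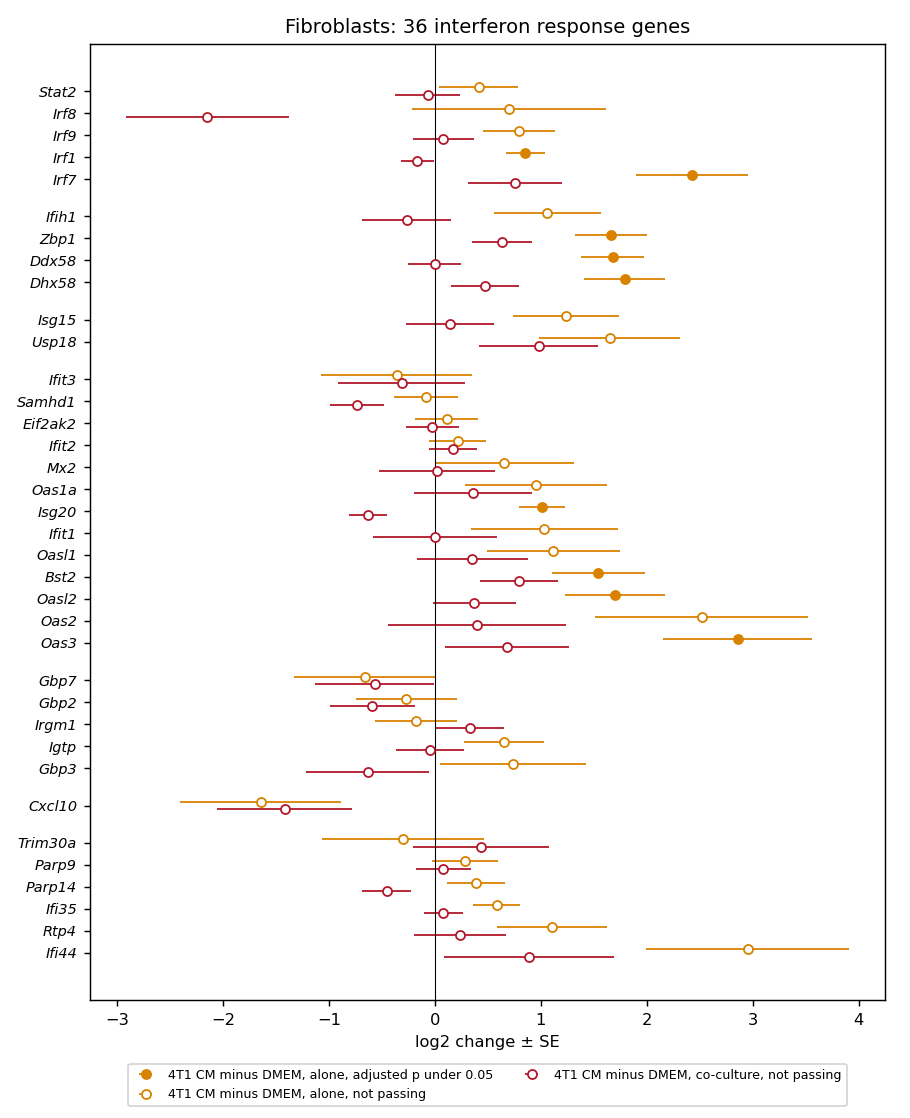
Log2 change ± SE (limma) of the 36 members in fibroblasts for 4T1 CM against DMEM, in mono-culture and in co-culture, grouped by role as transcription factors, sensors, ISG15 system, antiviral effectors, GTPases, chemokine and other interferon-stimulated genes from top to bottom. Filled points have an adjusted p under 0.05. In mono-culture 29 of 36 points lie above 0 and 9 are filled, and in co-culture 21 lie above 0 and none is filled.

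Whether the effect of 4T1 CM depended on macrophages was tested by an interaction term, which compares the change with co-culture between the media. Isg20 passed (-1.64 ± 0.28, adjusted p = 0.0342, limma), as 1 of 36 members, where 0.113% of all genes were lower and 0.0323% higher by this test, and 10 members had an unadjusted p under 0.05. Isg20 had 120.1, 88.0, 116 and 114 normalized reads in co-culture in 4T1 CM, below the 219 and 186 alone in 4T1 CM and below all co-cultured libraries in DMEM. Its call was lost in 9 of the 12 fits that left out 1 library, where the adjusted p reached 0.242. The terms of Ddx58 (-1.68 ± 0.39, adjusted p = 0.107), Irf1 (-1.02 ± 0.24, adjusted p = 0.111) and Irf7 (-1.67 ± 0.69, adjusted p = 0.352) were also negative and did not pass. Those of Isg15 (-1.10 ± 0.65), Stat2 (-0.48 ± 0.48), Bst2 (-0.75 ± 0.58), Gbp2 (-0.32 ± 0.63), Ifit3 (0.05 ± 0.93) and Cxcl10 (0.23 ± 1.00) did not pass either. The term of Irf8, a gene with few reads, did not pass and was -3.75 to -1.95 over the fits that left out 1 library. The median term over the members was -0.76.

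The members did not all vary as 1 block. The correlation of each with the median of the others, on log2 ratios over libraries that share depth and group structure, is a description. Over the 12 fibroblast libraries it was highest for Isg15 (r = 0.989) and Oas2 (0.95) and lowest for Cxcl10 (-0.39), Irf8 (-0.21) and Irf1 (0.197). Over the 14 macrophage libraries it was highest for Oasl1 (0.982) and Oasl2 (0.965) and lowest for Isg20 (0.0066), Trim30a (0.0654) and Gbp7 (0.131). Cxcl10 was low in both orders (0.31 in macrophages), and Irf1 had 0.81 in macrophages. In macrophages in 4T1 CM, 10 of 18 tested members with a core fell with co-culture, and 8 of 12 without one did.

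Genes of the same pathways outside the module were counted in a list of 70 further interferon-stimulated genes and a list of 22 interferon, receptor and signalling genes. In co-cultured against mono-cultured macrophages in 4T1 CM, 34 of 55 tested genes of the wider list were lower and 2 higher, against 11.9% and 14% of all genes. In fibroblasts alone in 4T1 CM against DMEM 1 of 51 was lower and 9 higher, against 6.93% and 6.36% of all genes. Trafd1, a regulator of innate signalling, and Uba7, the activating enzyme of ISG15, led the falls in macrophages (-1.19 ± 0.12, adjusted p = 4.13e-06, and -1.14 ± 0.16, adjusted p = 7.16e-05), while Ifi27 (1.18 ± 0.20, adjusted p = 0.000458) and Gbp8 (1.41 ± 0.47, adjusted p = 0.0345) rose. Ifi27 was also at 2368 ± 92.7 normalized reads in fibroblasts alone in DMEM. In co-culture in DMEM against day 0, 15 of 55 were lower and 2 higher, against 6.71% and 8.47% of all genes. In macrophages alone in 4T1 CM against day 0, 3 were lower and 14 higher, against 10.9% and 11.1% of all genes. Ifitm1, an interferon-induced membrane protein that blocks virus entry, rose from 24.1 ± 7.21 normalized reads at day 0 to 1734 ± 322 in 4T1 CM (6.20 ± 0.91, adjusted p = 8.66e-05).

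Of the signalling genes, 17 were tested in co-cultured against mono-cultured macrophages in 4T1 CM, where 11.9% of all genes were lower and 14% higher. Among them, 3 that fell were Ifnar2 (-0.88 ± 0.12, adjusted p = 7.7e-05), Sting1, the adaptor of cytosolic DNA sensing (-0.89 ± 0.15, adjusted p = 0.000401), and Ifngr1 (-0.54 ± 0.15, adjusted p = 0.0135). In fibroblasts alone, 5 of 16 were higher and 1 lower in 4T1 CM than in DMEM, against 6.36% and 6.93% of all genes. Ifnar2 went from 606 ± 36.2 normalized reads in DMEM to 1766 ± 454 in 4T1 CM (1.52 ± 0.20, adjusted p = 0.000431), and Socs1, a feedback inhibitor of JAK kinases, from 144 ± 9.47 to 313 ± 25.7 (1.11 ± 0.19, adjusted p = 0.00267). Irf5, Ifngr2 and Jak2 rose as well, and Jak1 fell by 0.60 ± 0.18 (adjusted p = 0.0372). Socs1 also rose in macrophages alone in 4T1 CM against day 0 (1.97 ± 0.29, adjusted p = 9.37e-05). The interferon genes Ifnb1 and Ifng are listed in neither table.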

How the data were processed

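Reads came from 3' end messenger RNA libraries (26 in all). The submitters' processing notes list mm10 as build and, with no role or order, the tools HTSeq, bcl2fastq and STAR 2.4.2a. The authors' macrophage table holds raw read counts, and for both cell types a normalized signal was deposited. The deposited signal, multiplied by 1 factor per library, gave whole reads for 100% of fibroblast values within 0.001 reads, and the factors equal median-of-ratios size factors. Rows name genes and no column lacked a sample. Every listed gene had at least 6 reads in 1 library, so genes below that are not covered.

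Fibroblast values were tested as log2(signal + 1) with limma 3.58.1 (trend, 12 libraries and 4 groups in 1 fit), after a filter of at least 5 in at least 2 libraries. A fold on this scale understates changes of low genes. Macrophage counts were tested with edgeR 4.0.16 (quasi-likelihood, TMM, filterByExpr, 14 libraries and 4 groups in 1 fit) in R 4.3.3. Tests are two-sided, with Benjamini-Hochberg adjustment over all genes tested and a threshold of 0.05. All 36 fibroblast members passed the filter and 39 of 40 macrophage members did, all but Xaf1. The scripts were tested on simulated data. Normalized reads in the text are the authors' signal, and levels are given ± SD. Replicate libraries of 1 group differed by more than counting noise, and whether macrophage replicates came from separate mice is not stated, so p-values measure the spread between these libraries.

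The members and lists were chosen with earlier results of these data known. All members may be named. Values are given for up to 8 members with the smallest adjusted p under 0.05 in a comparison and for Isg15, Ifit3, Irf7, Stat2, Irf1, Irf8, Cxcl9, Cxcl10, Gbp2 and Bst2 throughout, plus the leading 2 genes per direction of the wider list. The result of 1 gene of the signalling list is not reported here. Same-numbered libraries were checked for deviating together from their group means. Only between the macrophage co-cultures were all same-numbered pairs above r = 0.1 (0.168 to 0.444), and the labels state no pairing. Differently numbered libraries there reached 0.201. The highest pair was that of replicate 3, which held the most fibroblast RNA in both groups (21.4% and 6.71%). The part of this RNA in the likeness was not tested. Comparisons that share a group are not independent. 3' counting may divide reads between near-identical relatives (Ifit3 and Ifit3b, the Oas1 and Gbp families), and Mx2 is annotated as a polymorphic pseudogene. Alternatives were the pseudocount, filters, scaling, tools (edgeR on recovered reads, DESeq2 1.42.0), the libraries in the fit, a replicate block and leaving out each library.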

Additional observations from a re-analysis of the deposited data

Results flagged for a closer look

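Isg20 in fibroblasts was picked out because its change with co-culture differed between the media by a test of that difference (-1.64 on the log2 scale, adjusted p = 0.0342, limma), with the losses of that call given above.

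Single libraries far from the others of their group were found in 6 of 116 groups of 4 libraries examined, and chance gives about 1 in 20. In macrophages co-cultured in 4T1 CM, Gbp2 was at 20.7 normalized reads in replicate 3 (36.5 to 37.8 in the others), the library with the most fibroblast RNA, and Samhd1 was at 328 in replicate 2 (255 to 260.5 in the others). In macrophages alone in 4T1 CM, Gbp2 was at 65.9 in replicate 4 (41.2 to 44.6 in the others), Irf9 at 479 in replicate 3 (326 to 351) and Oas1a at 83.5 in replicate 2 (40.5 to 46.4). In fibroblasts co-cultured in 4T1 CM, Trim30a was at 43.4 in replicate 3 (3.32 to 6.26), the library with the highest median over the members.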

How the results depend on the processing

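Over 1528 values of named members under the alternatives, 1476 kept their side of the threshold, 32 lost the call, 20 gained it and 0 changed direction while called. Of the 1476, 59 changed sign, all of them not called. With 1 library left out, the number of members called ranged from 26 to 28 for macrophages with against without fibroblasts in 4T1 CM, from 11 to 20 for co-culture in DMEM against day 0, from 7 to 12 for mono-culture in 4T1 CM against day 0, from 20 to 27 for co-culture in 4T1 CM against day 0 and from 1 to 2 for the media in co-culture. In fibroblasts it ranged from 1 to 7 for 4T1 CM in mono-culture, from 0 to 1 for 4T1 CM in co-culture and from 0 to 2 for the interaction, and was 0 throughout for co-culture in either medium. Fitting only the groups compared gave 17 members in place of 9 for 4T1 CM in fibroblast mono-culture and 1 in place of 0 for co-culture in DMEM. The shares of all genes called in those fits are not given here. edgeR on recovered reads gave 1 in place of 0 for 4T1 CM in fibroblast co-culture, and DESeq2 gave 2 in place of 1 for the media in macrophage co-culture. The cause of these differences was not tested. Over all groups, 2 of 15 same-numbered fibroblast pairs and 7 of 19 macrophage pairs were above r = 0.1. Of the libraries, 3 of 12 and 6 of 14 were closest to one of their own number. Between macrophages co-cultured and alone in 4T1 CM, the same-numbered pairs ranged from r = -0.0434 to 0.341. A replicate block gave 1 in place of 0 members for 4T1 CM in fibroblast co-culture, 0 in place of 1 for the interaction and, for the media in macrophage co-culture, 2 in place of 1, or 7 with the co-cultured libraries fitted alone. Depth limits the low members most (Irf8 and Oas3 in fibroblasts, Cxcl10 in 4T1 CM), and groups of 2 to 4 libraries limit all of them.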
